A study of Mus musculus with 17 samples.

Results

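The receptors through which myeloid and erythroid cytokines act on blood progenitors were followed here as mRNA across 6 populations of mouse bone marrow. The set was defined by gene name, with earlier results of these arrays known: 10 receptor gene names were looked up among the gene names of the array, and 14 of the 41174 probes, carrying 9 of the 28090 gene names, were found. They were Csf1r, Csf2ra, Csf2rb, Csf2rb2, Csf3r, Il3ra, Il6ra, Il6st and Epor, and Csf2rb1 was present only as the older name that part of the files gave to the Csf2rb probes. Young adult female C57Bl/6 mice gave the marrow, and the methods state that several mice were pooled per replicate sample. The cells carried no engineered allele and received no treatment. Lineage-depleted, c-Kit-enriched cells were sorted on c-Kit, Sca-1, CD34, Flt3 and Fcγ receptor into long-term and short-term hematopoietic stem cells (LT-HSC, ST-HSC) and multipotent progenitors (MPP), and in a separate sort into common myeloid progenitors (CMP), granulocyte-monocyte progenitors (GMP) and megakaryocyte-erythroid progenitors (MEP). No member of the set was a sort marker. LT-HSC was represented by 2 arrays, 1 of which is given as replicates 2 and 3 pooled, and each of the other 5 populations by 3 arrays, 17 one-colour arrays in all.

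Cytokine receptors of this kind have no kinase activity of their own, apart from Csf1r, which is a receptor tyrosine kinase. Binding of the ligand brings receptor chains together, the JAK kinases bound to their tails phosphorylate them, and STAT5 or STAT3 carries the signal to the nucleus, while adaptors feed the Ras and PI3 kinase pathways. The receptors for GM-CSF and IL-3 pair a private alpha chain (Csf2ra, Il3ra) with a shared beta chain (Csf2rb), and the mouse has a second beta chain, Csf2rb2, which serves IL-3 alone. The IL-6 receptor pairs Il6ra with Il6st, also called gp130, which signals for the whole IL-6 family, and G-CSF and erythropoietin each act through 1 chain, Csf3r and Epor, that pairs with itself. In the marrow, M-CSF, G-CSF and GM-CSF sustain monocytes and granulocytes, and erythropoietin sustains red cell precursors.

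Levels are given as quantile-normalized log2 intensities, so that a difference of 1 is a doubling, and levels of different probes are not set against each other. Depth has no meaning for arrays, and the number of arrays limits the precision. Spots well above background made up between 41.4% and 70.1% of each array. The unnumbered LT-HSC array was by far the dimmest: its 75th percentile of signal was 53.1, against at least 243 on every other array. No member value was missing or saturated. The arrays lay on 6 slides scanned on 4 days, and day and population were partly tied: the numbered CMP, GMP and MEP arrays were read on 1 day, the numbered stem cell and MPP arrays and both LT-HSC arrays on another. The mean log2 level of the 6 sort markers was lower in MEP, at 7.59 to 8.38, than in GMP, at 10.76 to 11.01. The 10 GMP markers on the array, among them Mpo and Elane, had their highest mean level in GMP (14.04 to 14.43) and the 13 MEP markers, among them Gata1 and Klf1, in MEP (11.81 to 12.22). Of the MEP markers 11 were called higher in MEP than in GMP and 2, Itga2b (3.04 ± 0.53, adjusted p = 0.000963) and Nfe2 (1.01 ± 0.25, adjusted p = 0.0109), higher in GMP. The mean log2 level of the 8 megakaryocyte markers was lower in MEP, at 6.75 to 7.26 with 7 of the 8 well above background, than in GMP, at 7.77 to 8.61, or CMP, at 9.48 to 10.42. In sorted bulk RNA, fewer expressing cells and less RNA per cell cannot be told apart.

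Every member probe varied among the populations. All 14 passed the limma F-test over the 6 means at an adjusted p of 0.05, which 40.6% of all probes did, and 5 of 14 (1 probe each of Csf1r, Csf2rb, Csf2rb2, Il6st and Epor) had an unadjusted p under 1e-06, the limit used in the methods, which 4.90% of all probes reached. The differences lay mainly at the branch to MEP. Between GMP and MEP 13 of 14 member probes differed (background 17.4%), 12 of them higher in GMP (background in that direction 9.56%) and 1, the Epor probe, higher in MEP. Between CMP and MEP 13 of 14 differed (background 16.7%), between MPP and CMP 6 of 14 (background 12.1%), between CMP and GMP 3 of 14 (background 4.77%), between ST-HSC and MPP 2 of 14 (background 2.02%) and between LT-HSC and ST-HSC 1 of 14 (background 3.34%). The last share is not far from its background.

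**Figure D1:**
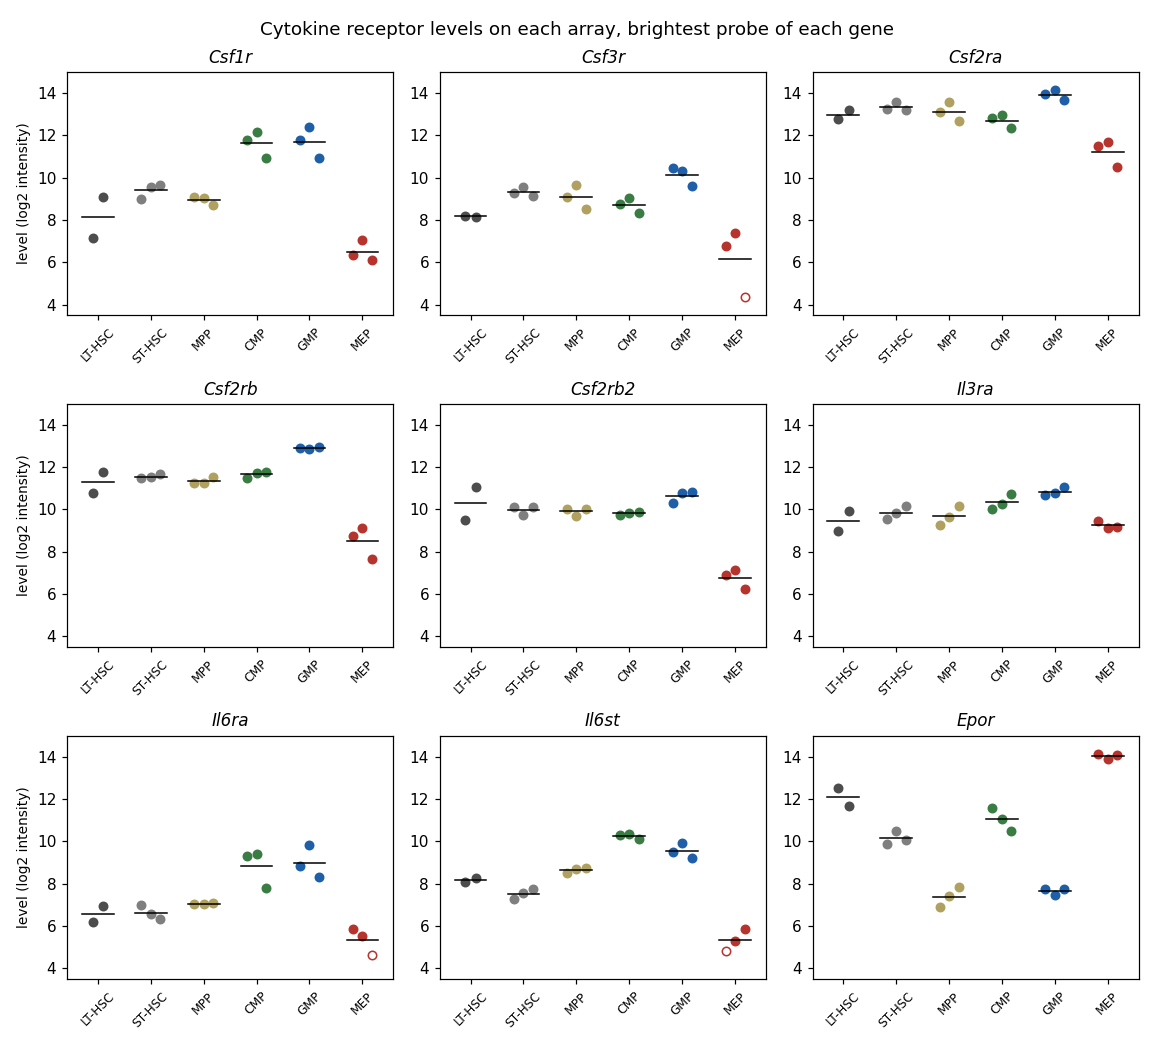
Level (log2 intensity) of the brightest probe of each of the 9 receptor genes on each of the 17 arrays, by population. Each point is 1 array, open points were not well above background on that array, and lines are means. The MEP mean lies lowest in every panel but that of Epor, where it lies highest.

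Csf1r, the receptor for M-CSF and IL-34, marked CMP and GMP. Its brightest probe (A_51_P365885) read 11.77, 12.14 and 10.95 in CMP and 11.76, 12.38 and 10.95 in GMP. In MEP it read 6.33, 7.03 and 6.12. The 3 MEP arrays lay below all 14 others, and CMP and GMP overlapped. ST-HSC, at 9.0, 9.57 and 9.67, and MPP, at 9.10, 9.04 and 8.70, lay between, and the LT-HSC arrays, at 7.14 and 9.09 in the pooled and the unnumbered array, were further apart than the arrays of any other population for this gene. The mean rose by 2.67 ± 0.49 (log2 difference ± SE) from MPP to CMP (adjusted p = 0.00452), a 6.39-fold change, and fell by 5.13 ± 0.49 from CMP to MEP (adjusted p = 7.6e-06), 35.0-fold. GMP exceeded MEP by 5.20 ± 0.49 (adjusted p = 4.98e-06). GMP and CMP differed by 0.07 ± 0.49, well within the spread. With the scanning day as a block, the rise from MPP to CMP was 2.14 and was no longer called (adjusted p = 0.0891), and on the slide that held both populations it was 2.25. The 11 markers of mature monocytes and macrophages moved partly with it: their mean log2 level was 7.88 to 8.15 in GMP, 7.28 to 7.68 in CMP, 7.79 to 8.44 in ST-HSC and 5.33 to 5.75 in MEP, with 9 to 11 of the 11 well above background on a GMP array and 6 to 8 on an MEP array, and their part in the Csf1r levels was not tested.

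Csf3r, the G-CSF receptor of the neutrophil lineage, was highest in GMP and lowest in MEP, with the other populations close together. Its probe read 10.45, 10.33 and 9.59 in GMP, 8.74, 9.03 and 8.32 in CMP and 6.77, 7.37 and 4.38 in MEP. That lowest value was the unnumbered MEP array's and was not well above background. MPP overlapped GMP, CMP and ST-HSC, and LT-HSC lay below all 3, at 9.26, 9.56 and 9.14 in ST-HSC, 9.07, 9.66 and 8.54 in MPP and 8.18 and 8.15 in LT-HSC. Every GMP array exceeded every CMP array, and the difference was 1.43 ± 0.58, but it did not pass over all probes (adjusted p = 0.291). It passed with the scanning day as a block (adjusted p = 0.035) and in the authors' own normalized values (adjusted p = 0.0372). It also passed when the unnumbered MEP array was left out (1.43 ± 0.31, adjusted p = 0.0193). Against MEP, GMP was higher by 3.95 ± 0.58 (adjusted p = 0.000251), and CMP by 2.52 ± 0.58 (adjusted p = 0.00836), both with that unnumbered MEP array included. Without the unnumbered MEP array GMP minus MEP was 3.05 ± 0.35 (adjusted p = 6.33e-05) and MEP minus CMP -1.62 ± 0.35 (adjusted p = 0.00739). Within each of the 2 slides of the numbered MEP arrays GMP minus MEP was 2.96 and 3.67 and MEP minus CMP -1.65 and -1.97. The 9 mature neutrophil markers on the array had overlapping mean log2 levels in GMP, at 9.03 to 10.48, and MEP, at 9.37 to 10.26. Of these, 2 were called higher in GMP, Cxcr2 (2.01 ± 0.51, adjusted p = 0.0136) and Mmp8 (1.90 ± 0.54, adjusted p = 0.0271), and none in MEP. Both were well above background on only 1 of the 3 MEP arrays. The other 7 did not pass and had GMP minus MEP differences of -0.01 to -1.48. The median over the 9 was -0.56. The part of these markers in the Csf3r levels was not tested.

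The receptors for GM-CSF and IL-3 were likewise highest in GMP and lowest in MEP by their means. Csf2ra, the GM-CSF alpha chain, read 13.95, 14.12 and 13.67 in GMP, 12.80, 12.98 and 12.33 in CMP and 11.50, 11.67 and 10.49 in MEP. GMP arrays lay above all others and MEP arrays below all others. Csf2ra differed by 1.21 ± 0.31 between GMP and CMP (adjusted p = 0.0436) and by 2.69 ± 0.31 between GMP and MEP (adjusted p = 3.23e-05). The first of these calls is near the threshold, as is that of Csf2rb: leaving out any 1 CMP or GMP array, or ST-HSC replicate 2, ST-HSC replicate 3 or MPP replicate 2, ended both and left Epor as the single member probe called between these populations, with differences of 1.03 to 1.35 for Csf2ra and 1.17 to 1.31 for Csf2rb. Leaving out the unnumbered ST-HSC array or MEP replicate 1 ended the Csf2ra call alone, and leaving out MPP replicate 3 that of Csf2rb alone. Without the unnumbered MEP array both stayed called, Csf2ra at 1.21 ± 0.25 (adjusted p = 0.0127) and Csf2rb at 1.26 ± 0.22 (adjusted p = 0.00438). On the 3 slides that held both CMP and GMP Csf2ra differed by 1.15, 1.16 and 1.34. In LT-HSC it read 12.76 and 13.20, in ST-HSC 13.25, 13.59 and 13.21 and in MPP 13.11, 13.56 and 12.65, where MPP overlapped both stem cell populations. Il3ra, the IL-3 alpha chain, had the narrowest range among the brightest probes. It read 10.70, 10.79 and 11.05 in GMP, 10.03, 10.27 and 10.71 in CMP and 9.45, 9.11 and 9.18 in MEP, and GMP exceeded MEP by 1.60 ± 0.29 (adjusted p = 0.00123), a 3.04-fold difference. In Il3ra, LT-HSC at 8.97 and 9.94 spanned the MEP values and MPP, at 9.28, 9.65 and 10.17, overlapped them, while ST-HSC, at 9.56, 9.83 and 10.18, did not. None of these 3 populations was called against MEP (adjusted p = 0.682, 0.254 and 0.136). CMP exceeded MEP by 1.09 ± 0.29 (adjusted p = 0.0187), but leaving out any 1 of 3 arrays (CMP unnumbered, MEP unnumbered, MEP 2) ended the call. MEP minus CMP was then -1.06 to -0.90, with adjusted p of 0.0551 to 0.0799. Beside Il3ra and the beta chains, which mast cells and basophils also carry, the 7 mast cell and basophil markers had a mean log2 level of 10.04 to 10.57 in GMP, 9.07 to 9.94 in ST-HSC, 6.39 to 7.39 in CMP and 4.61 to 5.88 in MEP, with all 7 well above background on every GMP array and 2 to 4 on an MEP array. The 5 eosinophil markers, of a cell type that also carries these receptors, had a mean log2 level of 12.24 to 14.15 in GMP, 9.06 to 10.54 in CMP and 8.40 to 11.43 in MEP, and 3 of the 5 were called higher in GMP than in MEP. The part of either list in these levels was not tested.

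The beta chains were lowest in MEP and, on average, highest in GMP. Csf2rb, by its brightest probe, read 12.90, 12.88 and 12.98 in GMP, 11.48, 11.73 and 11.78 in CMP and 8.73, 9.12 and 7.66 in MEP. The GMP values were nearly equal (SD 0.05) and lay above every other array. Csf2rb differed by 1.26 ± 0.32 between GMP and CMP (adjusted p = 0.0371) and by 4.41 ± 0.32 between GMP and MEP (adjusted p = 5.13e-07), 21.3-fold. In the stem cells and MPP the arrays overlapped, at 10.80 and 11.76 in LT-HSC, 11.47, 11.52 and 11.66 in ST-HSC and 11.24, 11.24 and 11.54 in MPP. Csf2rb2, the IL-3 beta chain, read 10.33, 10.76 and 10.82 in GMP, 9.73, 9.85 and 9.89 in CMP and 6.89, 7.16 and 6.22 in MEP. For Csf2rb2 the unnumbered LT-HSC array, at 11.08, was the highest of all and the pooled one read 9.5. GMP exceeded MEP by 3.88 ± 0.34 (adjusted p = 2.67e-06), and GMP and CMP differed by 0.81 ± 0.34, which did not pass (adjusted p = 0.311) although no arrays overlapped.

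The genes of the beta chains are close copies of each other that lie side by side on chromosome 15, so the sequences behind their probes are shown. The 60-base Csf2rb probe A_52_P52618 and the Csf2rb2 probe A_51_P146753 were compared without gaps in windows fixed at 30 bases. In the best window 27 bases were identical and 3 differed. Likeness over longer stretches was not scored. The 2 stretches, at chr15:78181197-78181226 on the plus strand and chr15:78113145-78113174 on the minus strand of mm9, are printed 5′ to 3′ with the differing bases in capitals.
Csf2rb: ggcagatcaaAtgtCccttggtctCtgttc
Csf2rb2: ggcagatcaaGtgtTccttggtctAtgttc
Signal shared between these probes was not measured and their values are uncertain to that extent. The other Csf2rb probes lie further upstream in the gene and are shown whole, since they did not give the same picture: A_52_P664853 covers 263 bases of chr15:78176856-78177118, more than its own length, so that it crosses an intron, and A_52_P492939 lies at chr15:78178640-78178699, both on the plus strand of mm9. Each reads through in at least 1 frame without a stop codon.
A_52_P664853: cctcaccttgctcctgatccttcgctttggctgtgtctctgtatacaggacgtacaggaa
A_52_P492939: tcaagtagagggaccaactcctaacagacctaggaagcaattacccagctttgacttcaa
Probe A_52_P492939 was dim and read 6.74, 7.35 and 6.69 in GMP, 5.82, 6.10 and 5.21 in CMP and 4.06, 4.04 and 1.70 in MEP, none of the MEP values well above background. Its GMP level was at least 4.64-fold that of MEP (adjusted p = 0.00169), where a bound sets the bright mean against the lowest signal that counted as above background on the dim arrays, or the probe's own if higher. It was not above background in LT-HSC either. Probe A_52_P664853 read 7.05, 7.27 and 7.22 in GMP and 6.44, 6.09 and 6.21 in MEP, a difference of 0.93 ± 0.38 that did not pass (adjusted p = 0.123). On this probe the 6 arrays of ST-HSC, MPP and LT-HSC scanned on the last day read 7.51 to 8.15, and the unnumbered ST-HSC and MPP arrays, scanned earlier, 6.37 and 6.69, so that its levels split by scanning day within ST-HSC and within MPP.

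The chains of the IL-6 receptor rose on entry to the myeloid branch and fell in MEP. Il6st, the common signalling chain of the IL-6 family, changed at more steps than any other gene but Epor. It read 8.06 and 8.25 in LT-HSC, 7.29, 7.56 and 7.73 in ST-HSC and 8.52, 8.69 and 8.74 in MPP, and no array of 1 of these populations overlapped another. It went on to 10.31, 10.33 and 10.13 in CMP and 9.49, 9.91 and 9.22 in GMP, and to 4.79, 5.30 and 5.88 in MEP. The lowest MEP value was not well above background. Il6st peaked in CMP, the only member to do so. It rose by 1.13 ± 0.25 from ST-HSC to MPP (adjusted p = 0.0306), which under the 75th percentile normalization was 1.06 and just missed the threshold (adjusted p = 0.052). For the step from ST-HSC to MPP, leaving out any 1 of 5 arrays (MPP 2, 3 and unnumbered; ST-HSC 2 and 3) ended the call, with differences of 1.01 to 1.19 and adjusted p of 0.0801 to 0.124. It rose by 1.60 ± 0.25 from MPP to CMP (adjusted p = 0.00143) and fell by 4.94 ± 0.25 from CMP to MEP (adjusted p = 7.12e-08), where 2 of the 3 MEP arrays measured it above background. The step from CMP down to GMP, -0.72 ± 0.25, did not pass (adjusted p = 0.156), although the arrays did not overlap and it did pass in the authors' own normalized values (adjusted p = 0.0488).

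Il6ra, the chain that binds IL-6, had a pair of probes on chromosome 3, both on the minus strand of mm9: A_51_P415863 at chr3:89690491-89690550 and, nearer the end of the gene, A_51_P415855 at chr3:89680743-89680802. They are shown because they read separate places of the gene and moved together, and each reads through in 2 frames without a stop codon.
A_51_P415863: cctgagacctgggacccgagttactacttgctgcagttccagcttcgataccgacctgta
A_51_P415855: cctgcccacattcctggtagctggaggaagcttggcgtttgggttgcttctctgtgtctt
The brighter, A_51_P415855, read 9.32, 9.38 and 7.81 in CMP, 8.82, 9.82 and 8.32 in GMP and 5.87, 5.51 and 4.64 in MEP, the last of them not well above background. LT-HSC at 6.20 and 6.96, ST-HSC at 7.01, 6.55 and 6.34 and MPP at 7.03, 7.02 and 7.07 lay in between. CMP and GMP overlapped, and both lay above all other arrays. Il6ra rose by 1.80 ± 0.47 from MPP to CMP (adjusted p = 0.0262). With the scanning day as a block that rise was 1.12 and not called (adjusted p = 0.187), and on the shared slide it was 0.74. Without the block, leaving out any 1 of 4 arrays (CMP 1 and 2; MPP 2 and 3) ended the call, with differences of 1.53 to 1.79 and adjusted p of 0.0797 to 0.122. From CMP to MEP it fell by 3.5 ± 0.47 (adjusted p = 0.000133), and GMP exceeded MEP by 3.65 ± 0.47 (adjusted p = 7.55e-05). On A_51_P415863 the same differences were 1.94 ± 0.69, which did not pass (adjusted p = 0.0842), -3.13 ± 0.69 (adjusted p = 0.00592) and 3.32 ± 0.69 (adjusted p = 0.00349). That probe was not well above background on the unnumbered MEP array or on either LT-HSC array. Its CMP level was at least 8.1-fold that of LT-HSC (adjusted p = 0.00725).

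Epor, the erythropoietin receptor, was the only member higher in MEP than in CMP or GMP, and it changed at every step tested. It read 14.10, 13.91 and 14.07 in MEP and 7.73, 7.46 and 7.75 in GMP, with 11.56, 11.08 and 10.49 in CMP. No 2 of these populations overlapped. Above the branch it read 12.50 and 11.67 in the pooled and the unnumbered LT-HSC array, 9.88, 10.48 and 10.05 in ST-HSC and 6.88, 7.40 and 7.85 in MPP. LT-HSC lay below MEP alone, and MPP overlapped GMP. Epor fell by 1.95 ± 0.34 from LT-HSC to ST-HSC (adjusted p = 0.00721) and by 2.76 ± 0.31 from ST-HSC to MPP (adjusted p = 0.000336), then rose by 3.67 ± 0.31 from MPP to CMP (adjusted p = 1.91e-05). From CMP it rose by 2.99 ± 0.31 into MEP (adjusted p = 1.39e-05) and fell by 3.39 ± 0.31 into GMP (adjusted p = 3.71e-05), which left GMP and MEP 83.3-fold apart (log2 difference -6.38 ± 0.31; adjusted p = 2.85e-08). The first of these steps rests on 2 LT-HSC arrays that share 1 slide, and with the slide as a random block it was -1.86 with an adjusted p of 0.0772. The mean log2 level of the 8 markers of mature erythroid cells on the array was 8.05 to 9.04 in LT-HSC, 6.58 to 7.98 in ST-HSC, 5.74 to 7.0 in MPP, 6.12 to 7.24 in CMP, 4.52 to 5.68 in GMP and 10.09 to 11.14 in MEP, and 5 to 8 of the 8 were well above background on an LT-HSC array. MEP and LT-HSC were the highest in these markers as in Epor, while MPP and CMP overlapped in the markers and not in Epor. Their part in the Epor levels was not tested.

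RefSeq promoter sequence (GRCm38.p6) was used for 7 of the 9 genes, and those of Csf1r and Csf2rb were not analysed here. For these 7, the 250 bases before the start were searched on both strands for AGATAA, a word bound by GATA factors, and GAGGAA, the purine-rich core bound by PU.1. The 2 words do not overlap each other. AGATAA stood in 9.99% of all 32851 such windows and in 2 of the 7 genes, Epor and Il6ra. GAGGAA stood in 23.3% of them and in 4 of the 7, Csf2ra, Csf2rb2, Csf3r and Il6ra. Il3ra and Il6st held neither. The windows of the gene highest in MEP and of 2 genes highest in GMP are shown 5′ to 3′ along the gene with the matched letters in capitals: Epor at chr9:21963577-21963826 on the minus strand, Csf3r at chr4:126024409-126024658 on the plus strand and Csf2ra at chr19:61228419-61228668 on the minus strand.
Epor: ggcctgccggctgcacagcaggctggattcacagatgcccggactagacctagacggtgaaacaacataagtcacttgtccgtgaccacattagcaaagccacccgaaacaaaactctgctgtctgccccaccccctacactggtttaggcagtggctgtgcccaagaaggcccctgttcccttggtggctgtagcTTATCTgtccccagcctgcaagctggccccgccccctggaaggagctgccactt
Csf3r: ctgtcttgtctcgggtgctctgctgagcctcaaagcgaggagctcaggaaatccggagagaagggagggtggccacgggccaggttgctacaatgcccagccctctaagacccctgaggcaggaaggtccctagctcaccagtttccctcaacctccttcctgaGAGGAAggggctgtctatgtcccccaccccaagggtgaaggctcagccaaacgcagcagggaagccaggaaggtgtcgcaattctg
Csf2ra: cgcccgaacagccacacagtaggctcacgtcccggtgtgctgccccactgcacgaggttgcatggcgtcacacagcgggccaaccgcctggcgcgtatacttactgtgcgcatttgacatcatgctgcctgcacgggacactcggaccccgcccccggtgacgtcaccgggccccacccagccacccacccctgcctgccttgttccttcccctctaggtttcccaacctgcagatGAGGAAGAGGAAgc
In Epor the match, read on the opposite strand as TTATCT, lay 54 to 49 bases before the start. Csf3r held GAGGAA at 86 to 81 bases before the start, and Csf2ra held 2 copies in tandem, the nearer ending 3 bases before the start. Such matches are a description of the letters and no binding was measured.

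The comparison of CMP with its daughters asks how receptor mRNAs part at the granulocyte-monocyte and megakaryocyte-erythroid branch. By the brightest probe, all 9 genes differed between CMP and MEP, 8 lower and Epor higher in MEP, with differences between -1.09 ± 0.29 for Il3ra and -5.13 ± 0.49 for Csf1r among the 8. Toward GMP, Csf2ra and Csf2rb rose and Epor fell (-3.39 ± 0.31, against 2.99 ± 0.31 toward MEP). Csf3r, Csf2rb2 and Il3ra had positive differences of 1.43, 0.81 and 0.51 that did not pass, Il6st a negative one of -0.72 that did not pass, and Csf1r and Il6ra stood at 0.07 and 0.15. The median difference over the 14 member probes was -2.79 between MEP and CMP, against 0.10 over all probes, and 0.35 between GMP and CMP, against 0.04. With the scanning day as a block 5 of 14 member probes were called between GMP and CMP. The share of all probes called with that block is not given, so this count has no background beside it.

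**Figure D2:**
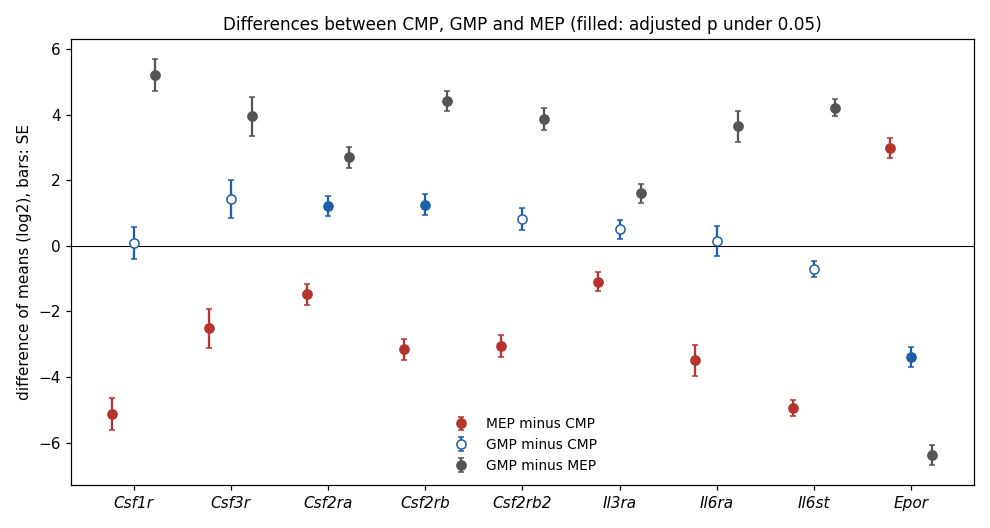
Differences of means (log2, bars: SE) between CMP, GMP and MEP for the brightest probe of each gene; filled points had an adjusted p under 0.05 (limma). MEP minus CMP is below 0 for 8 genes and above 0 for Epor, and GMP minus CMP is filled for Csf2ra, Csf2rb and Epor.

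On the 2 slides that carried CMP, GMP and MEP side by side, GMP minus MEP was 5.35 and 5.42 for Csf1r and 3.76 and 4.17 for Csf2rb. For Il6st it was 4.61 on the slide where both arrays were well above background. For Epor it was -6.45 and -6.38. Between the unnumbered arrays, read on different days, it was 4.83 for Csf1r, 5.32 for Csf2rb and 3.35 for Il6st. The unnumbered MEP values of Csf3r and Il6ra and the MEP replicate 1 value of Il6st were not well above background, so no gap of single arrays is given against them. From CMP to GMP, the 3 slides that held both gave 1.15, 1.42 and 1.20 for Csf2rb. Csf3r stood at 1.3, 1.71 and 1.27 on the same slides, and Il6st stood at -0.43, -0.82 and -0.91. Only Csf1r and Il6ra changed sign among the slides in this comparison.

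**Figure D3:**
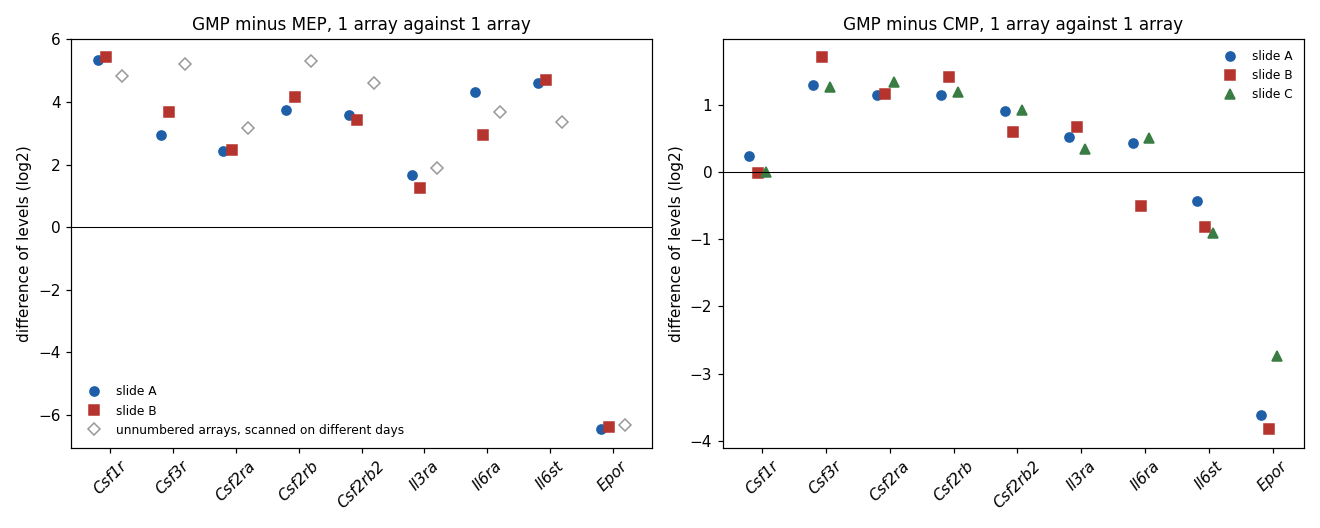
Difference of levels (log2) between 1 GMP array and 1 MEP array (left) or 1 CMP array (right), for each gene and slide; open diamonds set the unnumbered arrays, scanned on different days, against each other. In the left panel 8 genes lie above 0 and Epor lies near -6.38 on every slide. That panel includes gaps against MEP values not well above background: unnumbered for Csf3r and Il6ra, slide B for Il6st.

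Set against the mean of CMP, GMP and MEP, the mean of LT-HSC, ST-HSC and MPP differed for 11 of 14 member probes, but 41.3% of all probes were called in this comparison, and no member probe separated the 2 groups of arrays. By the brightest probe, Csf2rb2 (0.99 ± 0.20, adjusted p = 0.00163) and Csf2ra (0.53 ± 0.19, adjusted p = 0.0371) were higher on the stem cell side, and Csf1r (-1.11 ± 0.29, adjusted p = 0.00842), Epor (-1.04 ± 0.18, adjusted p = 0.000538), Il6ra (-0.97 ± 0.28, adjusted p = 0.0141) and Il3ra (-0.47 ± 0.17, adjusted p = 0.044) on the myeloid side. For Csf2ra leaving out any 1 of 9 arrays (CMP unnumbered and 1; GMP unnumbered and 1; LT-HSC unnumbered; MPP 2 and 3; ST-HSC 2 and 3) ended the call, with differences of 0.46 to 0.55 and adjusted p of 0.0513 to 0.105, and for Il3ra leaving out any 1 of 13 arrays (CMP unnumbered and 2; GMP unnumbered, 1 and 2; LT-HSC 2-3; MEP unnumbered, 1 and 2; MPP 2 and 3; ST-HSC 2 and 3) ended the call, with differences of -0.50 to -0.31 and adjusted p of 0.0533 to 0.165. With the scanning day as a block 1 member probe of 14 was called and none of the 9 brightest probes, and Csf2rb2 stood at 1.31 (adjusted p = 0.0721), Csf1r at -0.61 and Il3ra at -0.11. The share of all probes called with that block is not given. Within a slide, MPP minus the mean of CMP and GMP was -2.25 for Csf1r, -0.34 for Csf2rb2 and -1.27 for Epor, while ST-HSC minus MEP on another slide was 3.55, 3.89 and -4.01. The myeloid side of this contrast averages populations that lie at opposite ends for these genes.

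Ordering the populations by mean level shows where neighbours can be told apart. Of the 45 neighbouring pairs, 5 for each of the 9 genes, 32 were not called. For Csf2ra the order ran GMP, ST-HSC, MPP, LT-HSC, CMP, MEP, and the last step alone was called. Csf2rb2 (GMP, LT-HSC, ST-HSC, MPP, CMP, MEP) and Csf3r (GMP, ST-HSC, MPP, CMP, LT-HSC, MEP) also differed only at the step down to MEP. Csf1r (GMP, CMP, ST-HSC, MPP, LT-HSC, MEP) differed between CMP and ST-HSC (adjusted p = 0.0181) and again between LT-HSC and MEP (adjusted p = 0.0393), and Csf2rb (GMP, CMP, ST-HSC, MPP, LT-HSC, MEP) at its first and last step. Il6st (CMP, GMP, MPP, LT-HSC, ST-HSC, MEP) differed between GMP and MPP (adjusted p = 0.0197) and between ST-HSC and MEP. Il6ra (GMP, CMP, MPP, ST-HSC, LT-HSC, MEP) differed only between CMP and MPP, and Il3ra (GMP, CMP, ST-HSC, MPP, LT-HSC, MEP) at no neighbouring step. Epor (MEP, LT-HSC, CMP, ST-HSC, GMP, MPP) was the most finely graded, with called steps from MEP to LT-HSC (adjusted p = 0.000839), from LT-HSC to CMP (adjusted p = 0.0432) and from ST-HSC to GMP (adjusted p = 0.000163). The shares of all probes called in these pairs were 10.3% for CMP with ST-HSC, 22.5% for GMP with MPP, 23.4% for LT-HSC with CMP and 19.7% for ST-HSC with GMP. Set against LT-HSC, ST-HSC and MPP, MEP differed in 30.0%, 30.0% and 32.9% of all probes. Over those 3 populations with CMP and GMP, MEP was called lower by the brightest probe for Csf1r, Csf2ra, Csf2rb, Csf2rb2, Csf3r and Il6st in all 5. It was called lower for Il6ra in 3 and for Il3ra in 2, and higher for Epor in all 5. The dimmer probes of Csf1r and Il6ra and the Csf2rb probe A_52_P492939 were not called between MEP and LT-HSC, ST-HSC or MPP. The Csf2rb probe A_52_P664853 was called in those 3 and not against CMP or GMP.

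The genes with more than 1 probe agreed to different degrees. The 3 Csf1r probes correlated with each other at r = 0.86 to 0.94 over the 17 arrays, and GMP exceeded MEP by 5.20 ± 0.49, 4.60 ± 0.65 (adjusted p = 0.000172) and 1.93 ± 0.30 (adjusted p = 0.000425). The second of these probes, A_52_P602091, was not well above background on the unnumbered MEP array or the pooled LT-HSC array. The last probe was not well above background on any LT-HSC or MEP array, so its GMP level is given as at least 1.98-fold that of MEP. The Il6ra pair correlated at r = 0.92. The 3 Csf2rb probes did not move as 1: A_52_P52618 correlated at r = 0.63 with A_52_P492939 and at r = 0.43 with A_52_P664853, and those 2 correlated at r = -0.32. These correlations are over arrays that share populations, slides and normalization and carry no test.

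**Figure D4:**
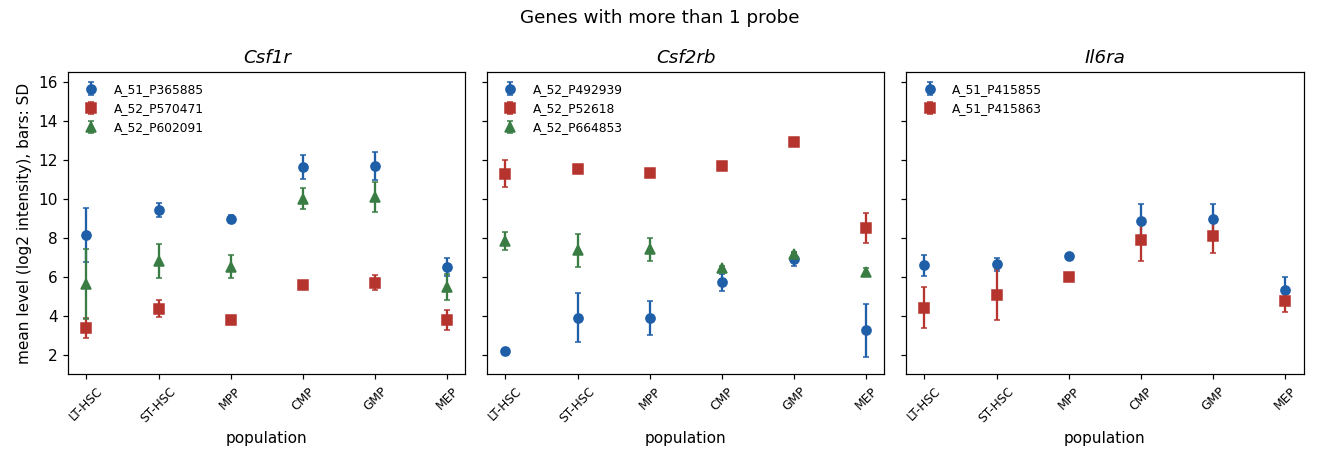
Mean level (log2 intensity, bars: SD) of each probe of Csf1r, Csf2rb and Il6ra in the 6 populations. All probes of Csf1r and of Il6ra are lower in MEP than in CMP and GMP. A_52_P570471 and A_51_P415863 have their lowest mean in LT-HSC, where they were not well above background. Of the 3 Csf2rb probes A_52_P664853 stays between 6.25 and 7.83 in every population.

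Across the 17 arrays the 8 genes other than Epor correlated positively with each other, which is a description over arrays that share populations and slides. The highest values were those of Csf2ra with Csf3r (r = 0.96), Csf2rb with Csf2rb2 (r = 0.95) and Csf1r with Il6ra (r = 0.94), followed closely by Csf2ra with Csf2rb (r = 0.92) and Csf2rb with Csf3r (r = 0.91), and the lowest was that of Csf2ra with Il3ra (r = 0.57). Epor correlated negatively with all 8 others, from r = -0.55 with Il3ra and Il6ra to r = -0.79 with Csf3r. Among the 13528 other named genes that were well above background on at least 3 arrays, the most similar to Epor were Epdr1 (r = 0.995), Aqp1 (r = 0.986) and Aldh1a1 (r = 0.985), and those most similar to Csf1r were Ms4a6c (r = 0.984), Anxa2 (r = 0.973) and Eif4e3 (r = 0.965). Il6st was closest to Irf8 (r = 0.970), Selplg (r = 0.963) and Pecam1 (r = 0.950), and Irf8 is a transcription factor of the monocyte lineage. Csf2rb was closest to Ankrd57 (r = 0.988), Pkm2 (r = 0.985) and Fes (r = 0.982), the last a cytoplasmic tyrosine kinase of myeloid cells, and Csf2rb2 to Niban (r = 0.982), Slc7a6 (r = 0.976) and Vill (r = 0.972). Csf2ra was closest to S100a11 (r = 0.957), Hfe (r = 0.953) and Serpinb1a (r = 0.952) and Csf3r to Ak3l1 (r = 0.953), Hfe (r = 0.943) and Serpinb1a (r = 0.942), so that Hfe and Serpinb1a appeared for both. Il6ra was closest to Prkcd (r = 0.974), Bckdha (r = 0.953) and Rogdi (r = 0.950) and Il3ra to Palm (r = 0.939), Naglu (r = 0.939) and B4galnt1 (r = 0.934).

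The partners of these receptors were read between GMP and MEP by the brightest probe of each gene. Over all gene names 10.3% were called higher in GMP and 8.26% higher in MEP, with a median difference of -0.07. Of 13 ligands on the array, 3 were higher in GMP and 1 in MEP, with a median of -0.06. Csf1, which encodes M-CSF, was not well above background on any MEP array and was at least 15.8-fold higher in GMP (adjusted p = 1.07e-07), and Il6 at least 7.64-fold (adjusted p = 0.00167). Osm, a ligand that signals through Il6st, was higher in GMP by 1.81 ± 0.39, and Flt3l was higher in MEP by 1.72 ± 0.22 (adjusted p = 7.71e-05). The probes of Csf2, Csf3, Il3, Il5, Kitl and Epo were not well above background on any GMP or MEP array.

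Of 24 other cytokine and growth factor receptors, 8 were higher in GMP, 3 were higher in MEP and 13 did not pass, with a median of 0.54. Tnfrsf1a, a TNF receptor, differed by 3.47 ± 0.19 (adjusted p = 6.66e-08), Il21r by 3.1 ± 0.23 and Il10ra by 3.09 ± 0.38. Higher in MEP were Il7r, at least 5.39-fold (adjusted p = 8.45e-05), Il18r1 (-3.19 ± 0.58) and Il1rl1, the IL-33 receptor (-2.20 ± 0.28). Il11ra1, the alpha chain that brings IL-11 to Il6st, was higher in GMP by 2.16 ± 0.16, and Lifr and Osmr, which also pair with Il6st, did not pass and were above background on 2 and 0 of the 3 GMP arrays. Il27ra, another partner of Il6st, stood at -0.79 ± 0.31 and did not pass (adjusted p = 0.117). Kit, the receptor on which all cells were enriched, differed by -0.43 ± 0.24 and did not pass (adjusted p = 0.296).

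Downstream of the receptors, of 11 JAK and STAT genes 5 were higher in GMP and none in MEP, and the largest differences were those of Stat4 (2.80 ± 0.23, adjusted p = 1.54e-06), Stat3, which Csf3r and Il6st use (1.98 ± 0.21, adjusted p = 1.45e-05), and Jak3 (1.59 ± 0.19, adjusted p = 4.9e-05). Jak2, on which Epor and the beta chains depend, differed by -0.56 ± 0.19, Stat5a by -0.79 ± 0.30 and Jak1 by -0.54 ± 0.21, none of which passed (adjusted p = 0.0678, 0.0975 and 0.0995). Under the 75th percentile normalization, which moved the median of all probes from -0.07 to -0.43, the split was 4 higher in GMP and 3 higher in MEP, the 3 being Jak1, Jak2 and Stat5a. Of 21 kinases, adaptors and Ras pathway genes, 11 were higher in GMP and 3 in MEP, with a median of 0.64. The kinase Fes (3.99 ± 0.35), the phospholipase Plcg2 (3.03 ± 0.16) and the kinase Syk (2.39 ± 0.25) had the largest differences toward GMP, and the adaptor Gab1 (-2.48 ± 0.35), Sos1 (-0.84 ± 0.21) and Hras1 (-0.82 ± 0.19) were higher in MEP.

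Of 21 negative regulators 4 were higher in GMP, 1 was higher in MEP and 16 did not pass, with a median of 0.36. With normexp background correction 8 were higher in GMP and 1 in MEP, the authors' value table gave 8 and 2, and the 75th percentile normalization gave 3 and 1, with Ptpn6 (adjusted p = 0.0865) and Inpp5d (adjusted p = 0.304) no longer called and Cbl, a ubiquitin ligase, newly called higher in GMP (adjusted p = 0.0389). Under quantile normalization of the processed signals the called genes were the phosphatases Ptprc (1.69 ± 0.20) and Ptpn6 (1.19 ± 0.32), the adaptor Sh2b3 (1.29 ± 0.32) and Inpp5d (0.54 ± 0.14), and on the MEP side Dok1 (-0.66 ± 0.19). No Socs gene passed, and Cish, a STAT5 target, stood at -1.35 ± 0.46 (adjusted p = 0.0647). Of 10 listed targets of STAT5 and STAT3, 3 were higher in GMP, namely Id1 (2.96 ± 0.37), Osm and the cyclin Ccnd2 (0.88 ± 0.20), and 1 in MEP, the transferrin receptor Tfrc (-1.69 ± 0.17, adjusted p = 7.4e-06), which red cell precursors need for iron. That split was 3 and 2 under the 75th percentile normalization, 4 and 2 with normexp background correction and 4 and 3 in the authors' value table. These lists were drawn up with earlier results of the arrays known, and their counts are descriptions.

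**Figure D5:**
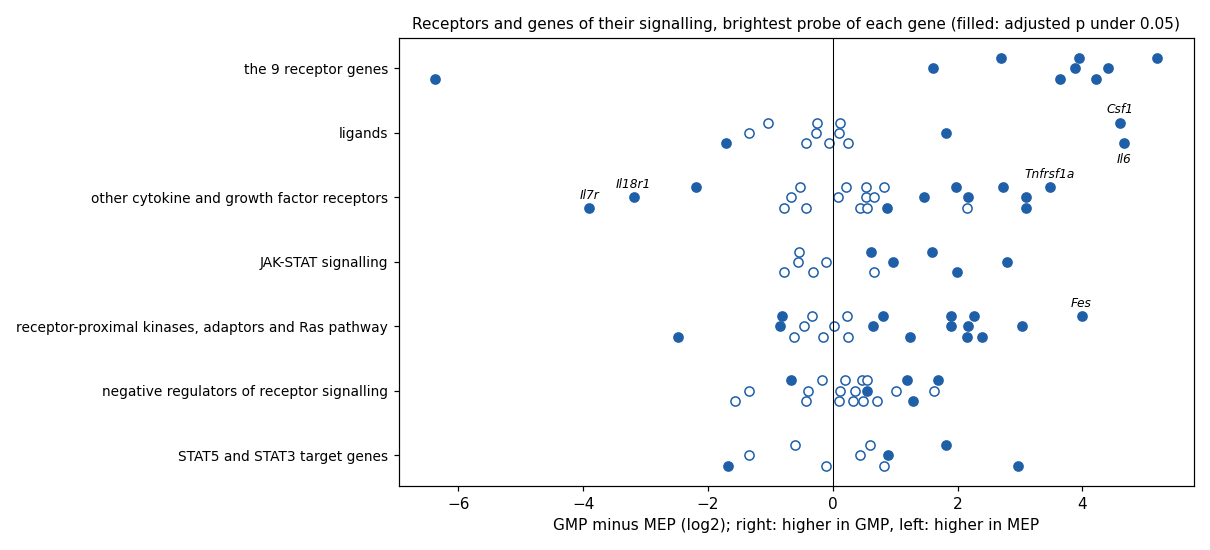
Difference between GMP and MEP (log2) for the 9 receptor genes and for each gene of 6 lists, brightest probe of each gene; filled points had an adjusted p under 0.05 (limma). The receptor genes lie at 1.60 or above apart from Epor at -6.38.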

How the data were processed

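Agilent one-colour arrays were hybridised with mRNA of the sorted populations, 1 sample per array. The deposited scanner intensities are the processed signals of Feature Extraction (9.5.3.1 or 10.2.1.3 per the labels), background-subtracted by that software. The authors also deposited a value table of quantile-normalized log2 values, used here as an alternative; the background correction behind it is not given in the sources used here. Processed intensities were put on the log2 scale and quantile normalized, 1639 control spots were dropped, outlier spots were left out (161 probe values) and spots of a probe were averaged. Quantile normalization gives all arrays 1 distribution, so differences are relative to it. limma 3.58.1 (R 4.3.3) fitted 1 mean per population over all 17 arrays and all 41174 probes, with Benjamini-Hochberg adjustment over all probes at 0.05. A gene is shown by its brightest probe. From each list, up to 3 genes with the largest difference each way between GMP and MEP, called and without overlap between arrays, were named, and for each member the 3 gene names most correlated with it; Il11ra1, Lifr, Osmr, Il27ra, Kit, Jak1, Jak2, Stat5a, Inpp5d, Cbl and Cish were named after their values were seen. The members and lists were chosen with earlier results of these data known. Tested on simulated data for GMP against MEP over 41174 probes, the fit recovered 26% of log2 changes of 1 and 84% of changes of 3. Replicate samples came from pooled mice, and p-values measure only the spread between these samples. Probe positions are those of the files (mm9).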

Additional observations from a re-analysis of the deposited data

How the results depend on the processing

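For GMP against MEP, CMP against MEP and the test over 6 populations, the count of member probes called stayed within 1.5 times of the reported one under every alternative run. CMP against GMP was the least settled: 6 member probes were called with normexp background correction, 6 in the authors' value table, 5 with the scanning day as a block and 6 with the slide as a fixed block without the LT-HSC arrays, against 3 as reported. With the scanning day as a block MPP against CMP fell to 3 and the HSC subsets against the myeloid populations to 1. With the slide as a random block LT-HSC against ST-HSC gave 0 and the HSC subsets against the myeloid populations 7. The 75th percentile normalization gave 1 for ST-HSC against MPP. Leaving out 1 array at a time gave 1 to 2 for ST-HSC against MPP and 1 to 4 for CMP against GMP. The cause was not tested, and the shares of all probes called under these alternatives are not given. Same-numbered arrays scanned on 1 day, which also shared a slide, deviated together (r = 0.131 to 0.521, against 0.089 to 0.325 for different numbers on 1 day), and same-numbered arrays of different days did not (r = -0.059 to 0.006). The numbers were therefore not taken as a pairing of samples across all populations. With the replicate number as a block over the 10 numbered arrays, CMP against GMP gave 6 and MPP against CMP 9, and without the block over the same arrays, an alternative chosen after seeing the data, 5 and 10. Of the 6 pathway lists, a count of the JAK and STAT genes, the negative regulators and the STAT5 and STAT3 targets moved by over 1.5 times in 1 direction, as given beside them, and normexp background correction gave 5 JAK and STAT genes higher in GMP and 1 in MEP. No called difference of a member's brightest probe reversed under these alternatives, and leaving out both LT-HSC arrays changed none of the 45 calls that could then be made.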
